A study of Mus musculus with 27 samples.

Results

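The 1488 regions described here are stretches of chromatin in mouse hepatocytes that carried a peak of acetylated lysine 9 of histone H3 (H3K9ac) and no peak of acetylated lysine 27 (H3K27ac) after hypoxia-reperfusion (HR). They were selected on deposited peak lists: a wild-type (WT) HR H3K9ac peak entered the set where it shared no base with any WT HR H3K27ac peak and at least 1 base with an H3K9ac peak of Acly-deleted (KO) hepatocytes after HR. The set holds 1488 of the 7593 WT HR H3K9ac peaks (19.6%, 95% Wilson interval 18.7 to 20.5%). A further 5261 peaks (69.3%) had the KO H3K9ac partner and also a WT HR H3K27ac peak, and these both-mark peaks are what the set is compared with. The remaining peaks had no KO H3K9ac partner, 460 of them without (6.06%) and 384 with (5.06%) WT HR H3K27ac.

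The peaks come from CUT&RUN, in which an antibody directs a nuclease to its target in permeabilized cells and the released fragments are sequenced. KO cells were primary hepatocytes of Alb-cre:Aclyf/f mice, in which the albumin promoter drives Cre in hepatocytes and removes the floxed part of Acly, and were taken into HR culture 24 hours after isolation. WT cells had the same antibodies and went into HR or into normoxia after the same 24 hours. The lists used were H3K9ac and H3K27ac in KO HR, WT HR and WT normoxia, and an anti-FLAG list, titled for ACLY, in WT HR. Age, sex, strain and the number of animals behind a culture, and the origin of the FLAG tag in WT hepatocytes, are not given in the sources used here. There was 1 library per antibody and condition, so nothing here has a test or a replicate error, and the intervals cover counting error over peaks, which are not replicates. The deletion of Acly was not checked here, as no RNA value per gene was used. In such bulk libraries fewer cells with a mark and less mark per cell cannot be told apart.

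Acetyl groups on histone H3 are laid down from acetyl-CoA, which ACLY makes from citrate outside the mitochondria. H3K9ac is written mainly by the acetyltransferases GCN5 and PCAF and lies close to active start sites. H3K27ac is written mainly by p300 and CBP, and marks active enhancers as well as active promoters, so that most active promoters carry both marks.

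The promoters below show what the regions look like in sequence. They belong to the set peak of largest total signal (Map3k7) and to the largest set peak within each of 4 short gene lists described further on, which do not hold every gene of a family: mitochondrial ribosome (Mrps27), RNA polymerases (Polr1c), Mediator (Med4) and nuclear pore (Nup214). Each is the 200 bases before the RefSeq start site, 5′ to 3′ on the gene's strand, in GRCm38.p6, with every CpG in capitals. Map3k7 lies at chr4:31963907-31964106 (plus strand), Mrps27 at chr13:99344586-99344785 (plus), Polr1c at chr17:46248046-46248245 (minus), Med4 at chr14:73509849-73510048 (plus) and Nup214 at chr2:31974250-31974449 (plus).
Map3k7: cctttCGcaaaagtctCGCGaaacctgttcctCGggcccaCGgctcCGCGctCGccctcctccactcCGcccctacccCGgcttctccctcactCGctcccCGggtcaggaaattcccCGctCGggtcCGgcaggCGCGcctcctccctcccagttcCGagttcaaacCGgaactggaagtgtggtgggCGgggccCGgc
Mrps27: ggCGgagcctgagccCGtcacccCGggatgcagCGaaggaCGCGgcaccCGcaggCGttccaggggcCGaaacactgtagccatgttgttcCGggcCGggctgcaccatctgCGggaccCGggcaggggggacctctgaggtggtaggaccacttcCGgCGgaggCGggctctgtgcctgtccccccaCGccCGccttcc
Polr1c: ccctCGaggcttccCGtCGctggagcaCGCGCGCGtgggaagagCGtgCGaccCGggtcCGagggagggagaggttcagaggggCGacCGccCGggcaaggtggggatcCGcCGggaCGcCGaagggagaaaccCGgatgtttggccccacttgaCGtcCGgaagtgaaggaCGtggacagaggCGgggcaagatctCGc
Med4: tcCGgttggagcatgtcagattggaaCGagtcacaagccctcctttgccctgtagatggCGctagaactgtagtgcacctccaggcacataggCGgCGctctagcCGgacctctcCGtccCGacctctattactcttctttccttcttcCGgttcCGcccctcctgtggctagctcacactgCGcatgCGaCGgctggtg
Nup214: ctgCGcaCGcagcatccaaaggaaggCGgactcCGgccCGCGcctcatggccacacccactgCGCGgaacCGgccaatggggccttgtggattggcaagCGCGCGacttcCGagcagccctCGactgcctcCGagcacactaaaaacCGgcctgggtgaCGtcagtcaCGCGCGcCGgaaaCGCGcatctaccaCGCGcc

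For contrast, 3 more promoters follow in the same form. Rpl4, for a protein of the cytosolic ribosome, and Alb, for serum albumin, lay at both-mark peaks. Fga, for the fibrinogen alpha chain, had WT HR H3K27ac and no WT HR H3K9ac peak. Rpl4 lies at chr9:64173187-64173386, Alb at chr5:90460670-90460869 and Fga at chr3:83025953-83026152, all on the plus strand.
Rpl4: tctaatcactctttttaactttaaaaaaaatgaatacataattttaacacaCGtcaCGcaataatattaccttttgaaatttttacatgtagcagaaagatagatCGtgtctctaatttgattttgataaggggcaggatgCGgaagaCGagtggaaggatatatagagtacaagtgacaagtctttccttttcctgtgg
Alb: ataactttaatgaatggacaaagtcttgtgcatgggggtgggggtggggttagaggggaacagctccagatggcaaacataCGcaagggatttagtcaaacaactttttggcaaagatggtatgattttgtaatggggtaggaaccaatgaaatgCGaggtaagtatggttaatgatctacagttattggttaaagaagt
Fga: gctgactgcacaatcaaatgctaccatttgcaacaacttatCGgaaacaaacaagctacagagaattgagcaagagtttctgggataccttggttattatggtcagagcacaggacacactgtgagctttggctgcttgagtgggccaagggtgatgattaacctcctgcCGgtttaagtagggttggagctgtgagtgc
The 5 set promoters held 13 to 25 CpGs in these 200 bases, where Rpl4 held 5 and Alb and Fga held 2 each. Corrected for base composition over 300 bases at the start site, as the ratio of observed to expected CpG, Rpl4 had 1.06 and was within the range of the set promoters, 0.674 to 1.13, while Alb had 0.272 and Fga 0.161. Both-mark and set promoters had the same median of 24 CpGs, so these examples show no difference between the classes. Mrps27, Polr1c and Med4 each contain CCGGAAG on either strand, the core that ETS factors bind, and Alb and Fga each contain GTTAAT, part of the site that the hepatocyte factor HNF1 binds.

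The gap to H3K27ac chose the regions and is given as a description. The median set peak lay 49.4 kb from the nearest WT HR H3K27ac peak, with a range of 0.06 to 5295 kb. In 18 of 1488 cases (1.21%) the gap was at most 1 kb, in 102 (6.85%) at most 5 kb, and in 466 (31.3%) over 100 kb. The members nearest the limit were at Sf3a3 with a gap of 60 bp, Wdfy2 with 70 bp, Map3k4 with 130 bp and Raver1 with 140 bp. Just outside it lay the peaks at Cd63 with 40 shared bp, Abcb4 with 330 and Hif1a, the gene of the hypoxia-responsive transcription factor subunit, with 340. Peaks near the limit were few: only 5 of the 5261 both-mark peaks were covered by H3K27ac over less than 10% of their width.

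The lists differed in length. The KO HR lists held 14418 H3K27ac and 8837 H3K9ac peaks, the WT HR lists 8252 and 7593, and the WT normoxia lists 5655 and 6513. WT peaks started and ended on a 10 bp grid (99.98% to 100.0% of peaks) and KO peaks did not (0.94% and 1.01%), so the KO and WT lists were made differently. A peak missing from a list had a signal under that list's limit, which is not the same as no mark: the weakest WT HR H3K27ac peak listed had a total signal of 36822. Hepatocyte markers fitted the labelled cell type. Of 15 such genes, 12 had a both-mark peak and none a set peak, while markers of Kupffer cells, endothelium, stellate cells and blood cells had a WT HR H3K9ac peak at 0 or 1 gene per list and those of cholangiocytes at 2 of 8.

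Regions with H3K9ac and without H3K27ac lay at the ends of protein-coding genes. Of the 1488, 1359 (91.3%, 89.8 to 92.7%) were within 1 kb of a coding gene end, against 74.9% (73.7 to 76.1%) of both-mark peaks and 77.0% of the whole list. Peaks inside a gene body and away from its ends made up 6.72% of the set and 18.1% of both-mark peaks. Outside genes lay 29 set peaks, or 1.95% (1.36 to 2.78%), against 6.99% of both-mark peaks. Distal sites, where enhancers lie, were therefore a smaller share of the set than of the both-mark peaks.

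Most of these gene ends were start sites. A RefSeq start site lay inside 1154 of 1438 set peaks (80.3%, 78.1 to 82.2%) and inside 67.4% (66.1 to 68.7%) of both-mark peaks, without chromosome 18 and with the 17492 of 21887 coding genes that have a promoter in the table used. The H3K9ac maximum was downstream of the start site in 89.2% of such set peaks and in 84.3% of such both-mark peaks. Its median position was 218 bp downstream in the set, with quartiles of 126 and 421 bp, against 343 bp with quartiles of 132 and 594 bp at both-mark peaks. The maximum thus lay over the first part of the transcribed region in both, and nearer to the start in the set. Promoters of divergent gene pairs made up 9.18% (7.79 to 10.8%) of the set and 8.17% of both-mark peaks, so the intervals overlapped. A total of 361 set peaks (24.3%) touched the ends of at least 2 coding genes, against 22.3% of both-mark peaks.

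**Figure D1:**
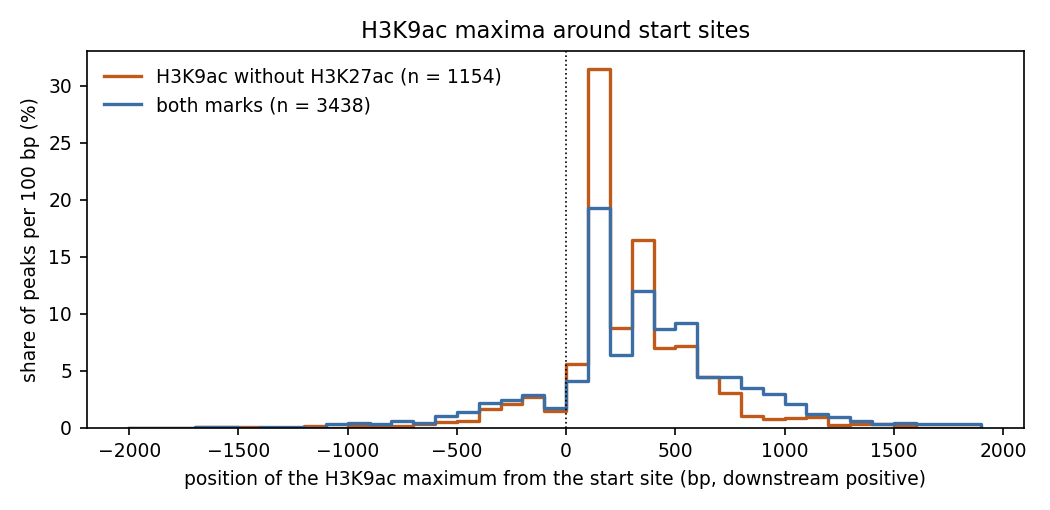
Position of the H3K9ac maximum relative to the RefSeq start site inside the peak (bp, downstream positive), as the share of peaks per 100 bp, for H3K9ac without H3K27ac (orange) and both marks (blue). Both curves are highest just downstream of the start, with medians of 218 and 343 bp, and the orange curve is the narrower.

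The set filled the lower part of the H3K9ac list. Total signal per peak, the authors' sum over the peak, had a median of 40471 in the set and 65333 at both-mark peaks. As a rank within the list, where 100 is the strongest, the median was 26.8 (25.2 to 28.2) against 64.1 (63.0 to 65.2). Set peaks were also narrower, with a median width of 4780 bp against 6930 bp at both-mark peaks. Maximum signal differed less, with medians of 40.5 and 45.1, and its median rank was 45.6 in the set against 57.6 at both-mark peaks. The list was divided by total signal into 4 bands of 1898 or 1899 peaks. The lowest held 700 set peaks (36.9% of that band), the next 562 (29.6%), the next 204 (10.7%) and the highest 22 (1.16%). The narrower width went with the low rank: from the lowest band to the highest, median widths were 4220, 5220, 6910 and 12215 bp in the set and 4595, 5340, 6600 and 10540 bp at both-mark peaks. Median summits in the lower 2 bands were 37.1 and 42.2 in the set, against 29.8 and 38.3 at both-mark peaks, and in the upper 2 bands 45.8 and 53.6, against 45.4 and 53.6. At equal rank the set was thus neither narrower throughout nor lower at the summit.

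Gene-end position did not follow rank in the set. The share at a gene end was 89.1%, 94.3%, 90.2% and 95.5% from the lowest band to the highest, where both-mark peaks had 45.6%, 69.2%, 79.6% and 84.4%. Within each band the set had the higher share, and in the lowest band the intervals were 86.6 to 91.2% for the set and 41.8 to 49.5% for both-mark peaks. In the highest band the set has only 22 peaks and its interval, 78.2 to 99.2%, contained the both-mark share.

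**Figure D2:**
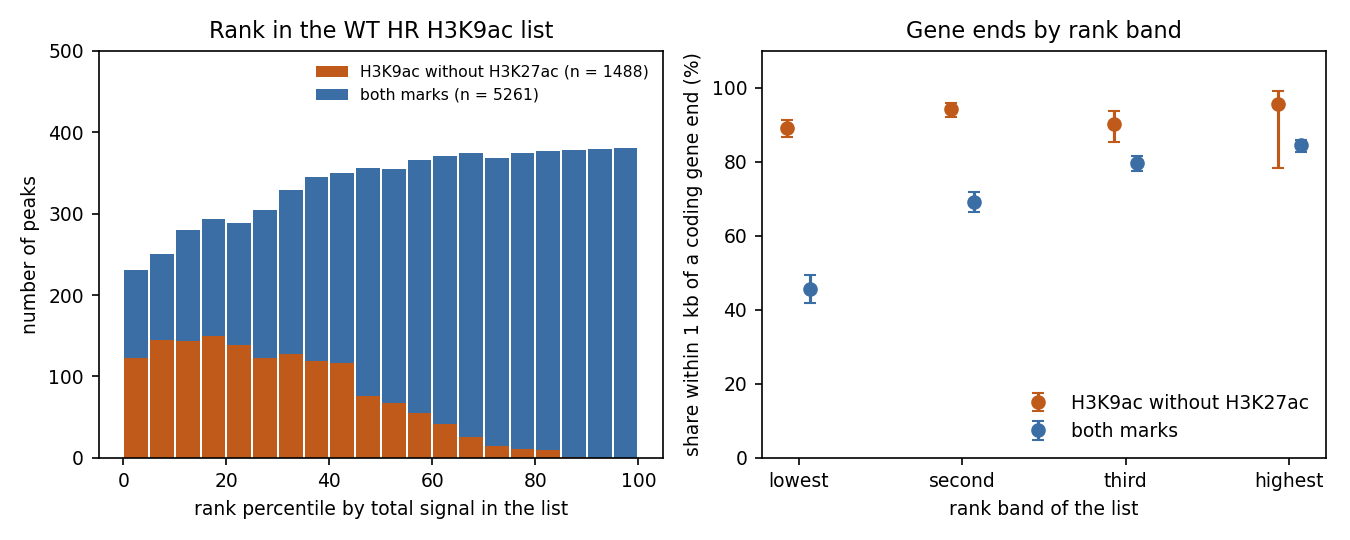
Left, number of peaks by rank percentile in the WT HR H3K9ac list, stacked for H3K9ac without H3K27ac (orange) and both marks (blue); right, share within 1 kb of a coding gene end by rank band, with 95% Wilson intervals. The orange bars thin out above the middle of the list, and the orange points stay between 89.1% and 95.5% in all 4 bands.

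Listed H3K27ac peaks were nearly absent from these regions in WT normoxia too. Only 22 of 1488 set peaks (1.48%, 0.978 to 2.23%) shared a base with a WT normoxia H3K27ac peak, against 75.2% (74.0 to 76.3%) of both-mark peaks and 56.2% of all WT HR H3K9ac peaks. The share was 1.57%, 1.42%, 1.47% and 0% of the set over the 4 bands, lowest first, and 67.9%, 58.2%, 68.9% and 93.4% of both-mark peaks. The share was thus low in the set at every rank. The WT HR and normoxia H3K27ac lists come from the same genotype and antibody, and the absence of H3K27ac in HR chose the set. The WT normoxia H3K27ac list held 5655 peaks and the WT HR list 8252. Their weakest peaks had total signals of 60122 and 36822. The part of list length and limit in the low share was not tested.

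KO HR hepatocytes had H3K27ac at more than 50% of the regions. A KO HR H3K27ac peak lay at 843 of 1488 set peaks (56.7%, 54.1 to 59.2%), against 99.6% of both-mark peaks and 86.3% of the whole WT HR H3K9ac list. These KO peaks were weak within their list: their median rank was 20.6, where 100 is the strongest, against 78.3 for the KO peaks at both-mark regions. They were also narrow, with a median of 2513 bp against 5835 bp. The KO list is the longest of all, and with it limited to its 8252 strongest peaks, the number in the WT HR list, only 55 set peaks (3.7%, 2.85 to 4.78%) had one, against 4743 both-mark peaks (90.2%). The 56.7% thus rested on the lower part of the KO list, and how far the difference in list length reflects the cells, the library or the peak calling was not tested. Taken over both lists, 643 set peaks (43.2%) had H3K27ac in neither KO HR nor WT normoxia, 823 (55.3%) in KO HR alone, 20 (1.34%) in both and 2 (0.134%), at Asph and Kctd21, in WT normoxia alone.

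**Figure D3:**
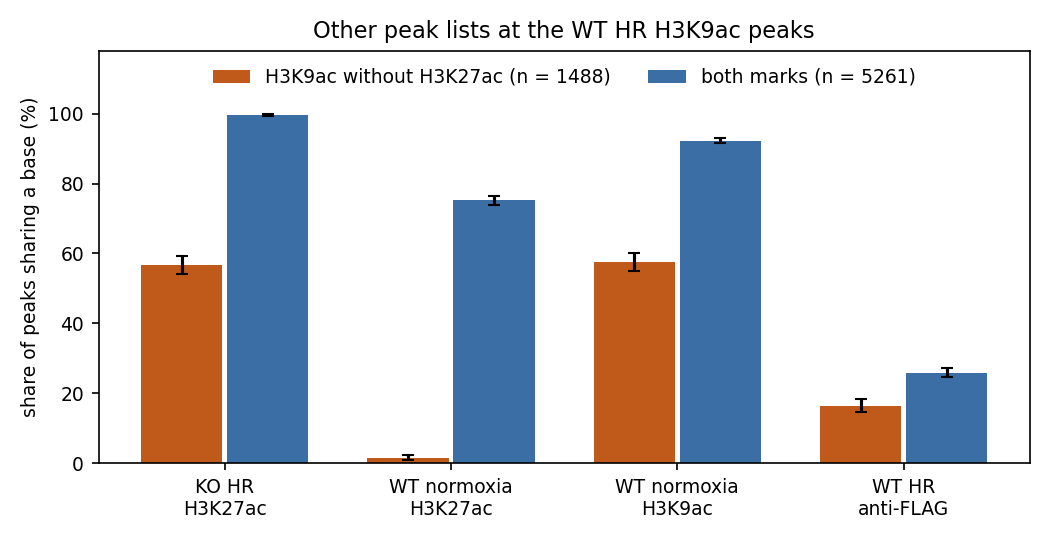
Share of WT HR H3K9ac peaks (%) that share a base with a peak of 4 other lists, for H3K9ac without H3K27ac (orange) and both marks (blue), with 95% Wilson intervals. The orange bar is at 56.7% for KO HR H3K27ac, 1.48% for WT normoxia H3K27ac and 57.7% for WT normoxia H3K9ac, below the blue bar in all 4 lists.

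H3K9ac itself was present in WT normoxia at 858 of the set peaks (57.7%, 55.1 to 60.1%), against 92.3% of both-mark peaks and 80.9% of the list. This share followed rank: it was 30.7%, 75.8%, 96.1% and 95.5% from the lowest band to the highest in the set, and 57.8%, 89.4%, 99.4% and 99.7% at both-mark peaks. The stronger members therefore nearly all had H3K9ac in normoxia as well. The WT normoxia H3K9ac list is shorter than the WT HR list, and the part of list length in this share was not tested. In KO HR, where an H3K9ac partner was required, the partner's median rank was 33.6 for the set and 68.2 for both-mark peaks.

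The anti-FLAG list, titled for ACLY, met the set at 243 peaks (16.3%, 14.5 to 18.3%), against 25.9% (24.7 to 27.1%) of both-mark peaks and 22.7% of the list. In the lowest rank band the shares were 13.9% in the set and 13.6% at both-mark peaks. In the highest they were 13.6% and 34.5%, with an interval of 4.75 to 33.3% for the 22 set peaks. The gap between the classes was thus not seen among weak peaks. The FLAG list of WT normoxia holds 1 peak, so no comparison across conditions was made. Among the members, the FLAG partner had a rank of 96.9 at Ezh2, the methyltransferase subunit of Polycomb repressive complex PRC2, and of 96.5 at Rae1, an mRNA export factor of the nuclear pore. Neither was the highest, as Tchh had 97.2 and Etnk2 97.1.

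The member of largest total signal was at Map3k7, which encodes the kinase TAK1 of the TGF-beta, interleukin-1 and TNF pathways. Its peak at chr4:31957771-31975000 is 17230 bp wide and its H3K9ac rank was 71.0 in KO HR, 87.6 in WT HR and 83.1 in WT normoxia. H3K27ac stood there at rank 22.4 in KO HR and was in neither WT list, the nearest WT HR H3K27ac peak being 270.2 kb away. H3K9ac was thus high in the lists of all 3 conditions at Map3k7 and H3K27ac weak or unlisted. A rank places a peak within its own list, and since the lists differ in length and making, ranks set side by side show no change between conditions.

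Next came Mfap1b, for a splicing-associated protein, whose H3K9ac rank was 46.6 in KO HR, 84.9 in WT HR and 7.98 in WT normoxia. Its peak, at chr2:121456501-121475640, also reaches Serinc4 and Hypk. Here only the WT HR peak ranked high. The other ranks are those of the peak sharing most bases, and further peaks of those lists under this wide region were not counted. Cpsf4, a subunit of the complex that cleaves pre-mRNA for polyadenylation, shares its peak at chr5:145162781-145172160 with Ptcd1 and had H3K9ac ranks of 81.2, 83.5 and 62.8 in KO HR, WT HR and WT normoxia. Idh3b, a subunit of the NAD-dependent isocitrate dehydrogenase of the citric acid cycle, shares a peak with Nop56, a core protein of the particles that guide RNA methylation, and had 42.1, 81.3 and 15 in the same order of conditions. Cpsf4 thus ranked high in every condition, while Idh3b, like Mfap1b, had a partner peak of low rank in WT normoxia.

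Eif4a3, the RNA helicase of the exon junction complex, had H3K9ac ranks of 64.4 in KO HR, 81.0 in WT HR and 72.8 in WT normoxia, and a FLAG peak of rank 56.4. Nsun3, which methylates a mitochondrial tRNA, had 50.3, 80.7 and 28.5 in these conditions, and no WT HR H3K27ac peak within 2060.3 kb. Phf1, an accessory protein of PRC2, lay in a peak that touches the ends of 4 genes, with 16.9 in KO HR, 80.6 in WT HR and no WT normoxia H3K9ac peak. Mfap1b, Cpsf4, Idh3b, Eif4a3, Nsun3 and Phf1 each had KO HR H3K27ac, at ranks of 18 to 39.7, all below the middle of that list.

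Without a listed H3K27ac peak in any of the 3 conditions, the 6 largest members were at Dctn5, Elac2, Mpg, Spdl1, Mcm8 and Lrrc14. Dctn5, a dynactin subunit, shares its start region at chr7:122127911-122143480 with Palb2, the partner of BRCA2 in homologous recombination, and had H3K9ac ranks of 60.0 in KO HR, 84.6 in WT HR and 64.2 in WT normoxia. The peak at Mpg, a DNA glycosylase that removes alkylated purines, had 31.9, 81.9 and 39.1 in these conditions. Its maximum lay 4610 bp upstream of the start site, in a region it shares with Rhbdf1 and Nprl3. At Mcm8, a helicase of homologous recombination, the ranks were 24.8, 78.6 and 75.9, and the nearest WT HR H3K27ac peak was 16.9 kb away. Elac2, the enzyme that trims the 3′ ends of tRNA precursors, had 12.9 in KO HR, 82.7 in WT HR and 65.8 in WT normoxia, the lowest KO rank among these 6. Spdl1, which brings dynein to kinetochores, had 47.6, 80.4 and 78.2, with H3K27ac 922.0 kb away. The peak at Lrrc14 also covers an end of Recql4, a DNA helicase, and had 60.5, 77.8 and 42.7. All 6 were thus above rank 77 in WT HR and ranged widely in KO HR.

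The 22 members with WT normoxia H3K27ac had low H3K9ac ranks like the rest of the set, with a median of 30.7 for the 20 that also had KO HR H3K27ac and 8.28 for the other 2. The largest was H2-T24, a non-classical MHC class I gene, with an H3K9ac rank of 62.1 in WT HR and H3K27ac ranks of 10.9 in KO HR and 29.1 in WT normoxia. Bicra, a subunit of a SWI/SNF chromatin remodelling complex, had H3K27ac ranks of 30.8 in KO HR and 15.5 in WT normoxia, and Sox5, a transcription factor gene, had 51.3 and 1.84. At Fam219b the WT normoxia H3K27ac rank was 64.9, against 16.2 in KO HR, and the nearest WT HR H3K27ac peak lay 1.15 kb from the H3K9ac peak. Ndufb6, a complex I subunit, had 19.7 in KO HR and 30.9 in WT normoxia. Hlf, a bZIP factor of the clock-controlled PAR family, had the highest KO rank of the 6, 78.6, and 22.2 in WT normoxia. Over all 22 the median WT normoxia H3K27ac rank was 26.0, and the highest, 90.2, was at Osbp, an oxysterol-binding protein, so that high ranks were not limited to Fam219b.

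The 6 lists with the highest shares at the set were mitochondrial ribosomal proteins, RNA polymerase, nuclear pore, Mediator and complex I subunits, and splicing factors. In all, 1732 of 21887 coding genes (7.91%) had an end within 1 kb of a set peak, 5183 (23.7%) one of a both-mark peak, 90 both, and 14436 (66.0%) no WT HR H3K9ac peak. Of 28 mitochondrial ribosomal protein genes, 12 (42.9%) were at the set and 7 at both-mark peaks. RNA polymerase subunits were split 8 and 8 of 20, nuclear pore genes 8 and 10 of 22, Mediator subunits 7 and 7 of 20, and complex I subunits 6 and 11 of 21. Splicing factors had 7 at the set and 19 at both-mark peaks of 27. These shares in the set, 25.9% to 42.9%, stood above the 7.91% of all coding genes, but so did the lists' shares at both-mark peaks stand above 23.7%, and most of their genes had H3K9ac. The counts depend on weak peaks, as does that of all coding genes. With only the WT HR H3K9ac peaks above the list's median, the 6 lists had 1, 2, 2, 0, 1 and 1 genes at the set in the order named. All coding genes at the set fell from 1732 to 305 there. With 50% cover the lists had 5, 5, 2, 3, 2 and 3, and all coding genes 840. The fall was thus not particular to these lists.

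**Figure D4:**
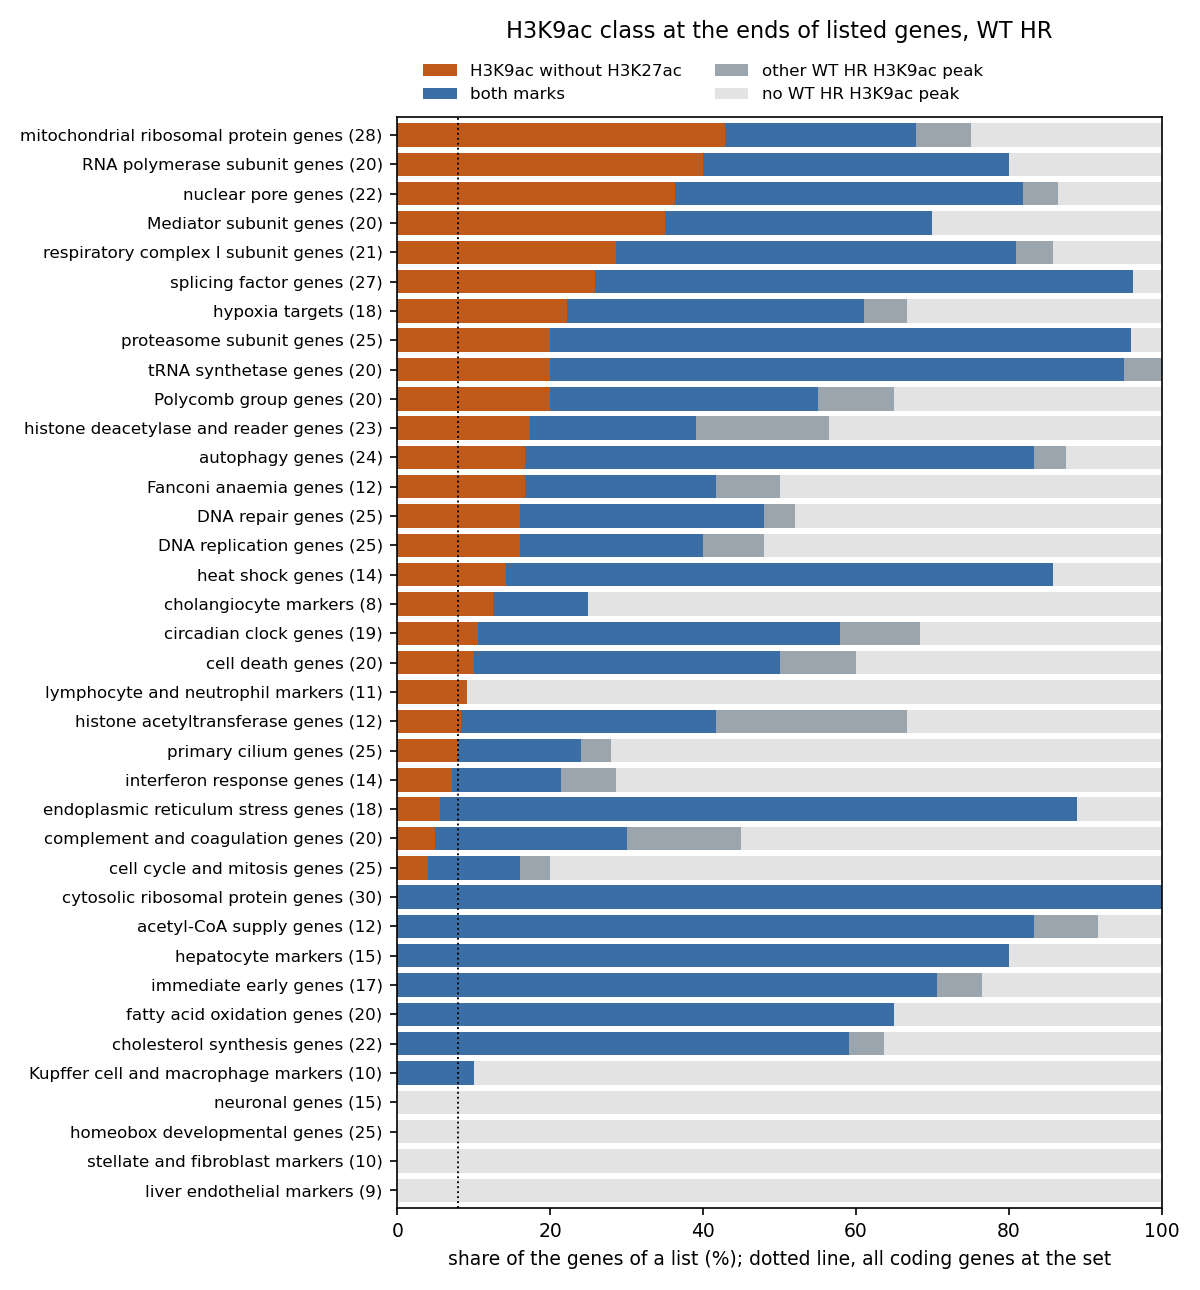
Share of the genes of 37 lists (%; number of genes in brackets) with an end within 1 kb of an H3K9ac peak without H3K27ac (orange), of a both-mark peak only (blue), of another WT HR H3K9ac peak only (dark grey) or of none (light grey). The dotted line is the 7.91% of all coding genes at the set; mitochondrial ribosomal proteins are at the top with 42.9%, and cytosolic ribosomal proteins are blue throughout.

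All 30 cytosolic ribosomal protein genes of the list were at both-mark peaks and none at the set, while the mitochondrial list had the highest share in the set. This order turned round when only the peaks above the median of each other list were used: 12 of the 30 cytosolic genes were then at the set, against 6 of the 28 mitochondrial genes. By gene symbol, 21 of 78 Mrpl and Mrps genes (26.9%) were at the set, against 1 of 77 Rpl and Rps genes (1.3%), Rpl39, families chosen after the list values were seen. The strongest of these peaks lay at Mrps11 and Mrpl46, whose ends lie in 1 peak, with H3K9ac ranks of 70.2 in KO HR, 79.4 in WT HR and 78.1 in WT normoxia and KO HR H3K27ac at rank 22.5. The strongest within the list, Mrps27 of the small subunit, had H3K9ac ranks of 43.1 in KO HR, 65.5 in WT HR and 77.8 in WT normoxia. Mrpl3 of the large subunit had 60.2, 45.6 and 35.8, Mrpl9 had 56.5, 41.9 and 18.9, and Mrpl37 had 51.7, 37.3 and 25.9. In the list, 5 of the 12 had KO HR H3K27ac, none had WT normoxia H3K27ac and 5 had WT normoxia H3K9ac. Over all set peaks these shares were 56.7%, 1.48% and 57.7%.

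In the polymerase list, Polr1c, a subunit shared by RNA polymerases I and III, led with H3K9ac ranks of 54.6 in KO HR, 61.9 in WT HR and 68 in WT normoxia. Polr2e, a subunit common to all nuclear RNA polymerases, had 3.02, 54.7 and 44.4, and Polr2b, the second-largest subunit of polymerase II, had 50.9, 46.9 and 19. Polr2e was thus near the bottom of the KO list while Polr1c and Polr2b stood near its middle. Polr3e, of polymerase III, had 44.8 in KO HR, 33.7 in WT HR and no WT normoxia peak. Med4 was the strongest in the Mediator list with 30.3, 47.0 and 7.72. Outside that list Med26, chosen by its symbol, had 71.3, 70.1 and 64.6 and KO HR H3K27ac at rank 19.7, and Med13l had 24.0 in KO HR, 53.1 in WT HR and no WT normoxia peak. The nuclear pore gene Nup214 had 45.8, 66.4 and 41.2. By symbol, 13 of 30 Med genes, 10 of 28 Polr genes and 6 of 15 Integrator genes were at the set, with 11, 11 and 5 at both-mark peaks. Over all coding genes these shares were 7.91% and 23.7%. Of the symbol families counted, these had the highest shares at the set. Lower ones included Taf, with 4 of 24, and Exosc, with 1 of 10.

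Respiratory complex I followed with Ndufa10, whose summit of 103 was among the 10 highest of the set and whose H3K9ac ranks were 70.8 in KO HR, 76.4 in WT HR and 82.7 in WT normoxia. Ndufv1, the subunit that binds NADH and FMN, had 17.0, 39.1 and 84.7, and a WT HR H3K27ac peak only 0.27 kb away. Ndufa10 was thus high in every list and Ndufv1 in WT normoxia alone. Of the splicing genes, Prpf31, a protein of the U4/U6 particle, had 52.9, 68.4 and 59.4, and Srsf7, an SR protein, had 55.6, 34.1 and 4.76.

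Hypoxia targets were spread over the classes and over genes without H3K9ac. Of 18, 4 were at the set (22.2%), 7 at both-mark peaks (38.9%), 1 at another WT HR H3K9ac peak only and 6 at none. Over all coding genes, 7.91% were at the set and 23.7% at both-mark peaks. Adm, for the vasodilator peptide adrenomedullin, had H3K9ac ranks of 82.7 in KO HR, 73.0 in WT HR and 17.7 in WT normoxia, with KO HR H3K27ac of rank 19.8. Egln1, the prolyl hydroxylase PHD2 that marks HIF-alpha for degradation, had 53.9, 61.2 and 1.49. Ndrg1, a gene induced by hypoxia in many cell types, had 32.4 in KO HR and 28.7 in WT HR, and P4ha2, a collagen prolyl hydroxylase subunit, had 27.5 and 7.62, and neither had a WT normoxia peak. In WT normoxia, Adm and Egln1 were thus low in the H3K9ac list and the other 2 outside it. Of all set peaks 57.7% had a WT normoxia H3K9ac peak, so 2 of 4 was near the share of the set. The ranks of those WT normoxia peaks had quartiles of 11.4 and 43.3. Adm lay between these quartiles and Egln1 below them.

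Genome maintenance and chromatin genes were each present in small numbers, to be read beside all coding genes, of which 7.91% were at the set and 23.7% at both-mark peaks. DNA repair had 4 of 25 at the set and 9 at both-mark peaks. Its members were Atr, the checkpoint kinase, with H3K9ac ranks of 79.6 in KO HR, 62.7 in WT HR and 53.3 in WT normoxia, Xpc, the damage sensor of nucleotide excision repair, Mre11a, a nuclease of double-strand break repair, and Parp2, a poly-ADP-ribose polymerase. All 4 had KO HR H3K27ac, at ranks of 4.54 to 31.8. Of all set peaks 56.7% had it, at a median rank of 20.6 with quartiles of 11.5 and 30.5. Replication genes had 4 of 25 at the set (16.0%) and 7 at both-mark peaks. Their largest set peak was at Orc6, an origin recognition subunit, with 69.5, 74.1 and 73.5. Of 20 Polycomb genes, Suz12, Ezh2, Pcgf5 and Pcgf2 were at the set, so that 2 core subunits of PRC2 were among them. Suz12 had 59.7 in KO HR, 48.1 in WT HR and 11.3 in WT normoxia. Histone deacetylases and readers had 4 of 23 (17.4%), namely Hdac3, Sirt1, Hdac10 and Hdac2, and 6 at both-mark peaks. Acetyltransferases had 1 of 12 (8.33%), Kat6a, near the share of all coding genes, and 4 at both-mark peaks. Proteasome genes had 5 of 25, tRNA synthetases 4 of 20 and autophagy genes 4 of 24, with 20, 16 and 16 at both-mark peaks.

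Lists of liver function and of immediate early genes had few genes at the set or none. No gene was at the set of the 15 hepatocyte markers, 17 immediate early genes, 20 fatty acid oxidation genes, 22 cholesterol synthesis genes or 12 acetyl-CoA supply genes, of which 12, 12, 13, 13 and 10 were at both-mark peaks. Complement and coagulation had 1 of 20, Masp2, at a peak shared with Srm, the nearer gene, that holds no start site used here. Endoplasmic reticulum stress had 1 of 18, Pdia6, a disulfide isomerase, with 15 at both-mark peaks. Beside the 7.91% of all coding genes, these counts are small and rest on short lists. Homeobox genes (25) and neuronal genes (15) had no WT HR H3K9ac peak of any class. Cytochrome P450 genes had 2 of 99 at the set, Cyp4f13 and Cyp17a1, and olfactory receptor genes 0 of 1110.

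Promoters at the set were CpG-rich. Over the 300 bases at the start site, the ratio of observed to expected CpG had a median of 0.845 (0.835 to 0.857) over 1319 genes of the set and 0.842 (0.834 to 0.849) over 4095 genes at both-mark peaks, so these overlapped. It was 0.358 over 349 genes with a start site under WT HR H3K27ac and no WT HR H3K9ac. Over 11648 genes with a start site under neither mark it was 0.358, and over all 17492 genes with a promoter 0.61. A gene with several start sites can fall in several of these classes, so some of the 11648 can be marked at another start site. In the set, such a gene entered by its promoter of highest ratio. A ratio of at least 0.6 was found in 88.2% (86.4 to 89.9%) of the set, 84.3% (83.2 to 85.4%) of both-mark promoters and 30.1% of those with H3K27ac alone. Promoters with either mark alone therefore differed in base composition, those with H3K9ac alone resembling both-mark promoters and those with H3K27ac alone resembling unmarked ones.

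**Figure D5:**
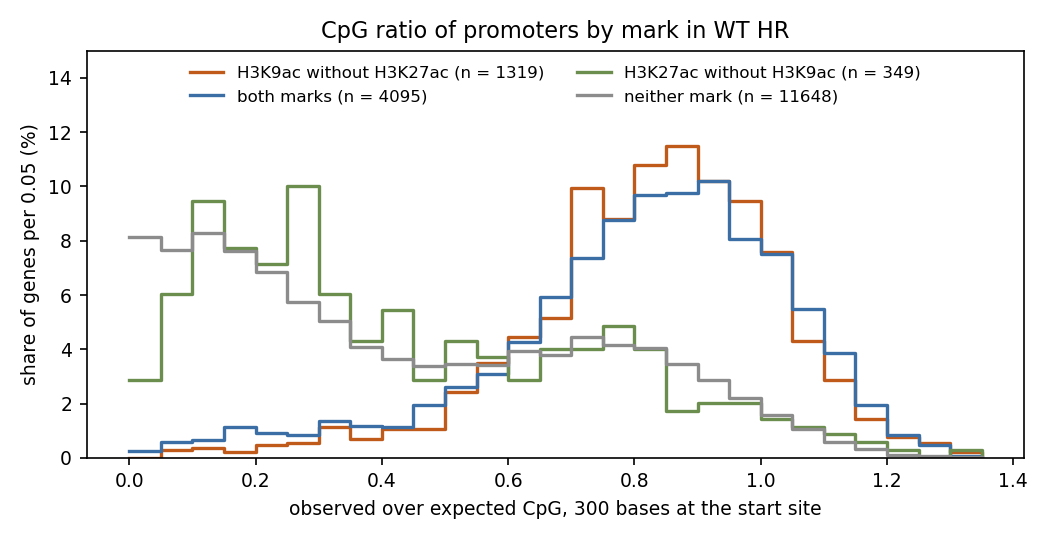
Observed over expected CpG in the 300 bases at the start site, as the share of genes per 0.05, by the WT HR peaks at the start site. The curves of H3K9ac without H3K27ac (orange) and both marks (blue) lie together with medians of 0.845 and 0.842; H3K27ac without H3K9ac (green) and neither mark (grey) both have a median of 0.358.

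Some of the motifs counted followed the same division and others did not, counting a motif on either strand of these 300 bases. The Sp and KLF factor site GGGCGG was in 69.3% (66.8 to 71.7%) of set promoters, 70.5% of both-mark promoters, 36.7% of those with H3K27ac alone and 47.8% of all. The ETS core CCGGAAG, seen above in Mrps27, Polr1c and Med4, was in 27.6% (25.3 to 30.1%) of set promoters and 22.6% (21.3 to 23.9%) of both-mark promoters, against 12.2% of all. These 2 intervals did not overlap. The TATA box TATAAA was in 5.53% of set and 6.06% of both-mark promoters, against 12.3% with H3K27ac alone and 13.1% of all. The partial HNF1 site GTTAAT was in 3.64% and 3.86%, against 11.2% with H3K27ac alone and 6.14% of all. A match describes the letters and is not evidence of binding.

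Members with and without KO HR H3K27ac differed little in width, gene-end share and promoter CpG ratio. The 843 with it and the 645 without it had median widths of 4780 and 4790 bp, gene-end shares of 91.2% and 91.5%, and promoter CpG ratios of 0.846 and 0.844. WT normoxia H3K9ac was at 61.4% (58.1 to 64.7%) of the members with KO HR H3K27ac and 52.7% (48.9 to 56.5%) of those without. FLAG was at 18.7% (16.3 to 21.5%) and 13.2% (10.8 to 16.0%). The KO H3K9ac partner had a median rank of 39.6 with KO HR H3K27ac and 27.3 without. The median WT HR H3K9ac rank was 28.2 with it and 24.0 without, and the median gap to WT HR H3K27ac 41.9 and 60.9 kb. Gene-end position and CpG ratio were thus alike. Where the KO list had H3K27ac, WT HR H3K27ac lay nearer, and the shares and ranks of H3K9ac and the FLAG share stood somewhat higher.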

How the data were processed

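CUT&RUN peak lists of 7 libraries were used as the authors deposited them. In them the authors give each peak a total and a maximum signal, which they computed before deposit by a method and on a scale not stated in the labels, so the deposited signal was used only to describe and rank peaks within a list. The build was mm10, per the submitters' processing notes; aligner and peak caller are not given in the sources used here. Overlaps were computed in Python 3.11.15 (pandas 2.3.3, numpy 2.4.6, scipy 1.17.1), with 1 shared base as the minimum, and the overlap code was tested on simulated regions. Genes and promoters are RefSeq's for GRCm38.p6. A partner is the overlapping peak sharing most bases. Intervals are 95% Wilson or binomial order-statistic intervals, and no test was run. Sequencing depth is unknown. Named genes are the 10 largest members, the 6 largest of each H3K27ac pattern and up to 4 per gene list, by total signal; genes at the limit of the rule, of high FLAG or H3K27ac rank, or of symbol families were chosen after their values were seen. The members and lists were chosen with earlier results of these data known. Of 703 list entries, 701 matched. The 16 RNA libraries, the WT normoxia FLAG list and the 3 IgG samples were not used here.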

Additional observations from a re-analysis of the deposited data

How the results depend on the processing

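No paired analysis was possible because there was 1 library per antibody and condition and no result comes from a test. Of the main values, 47 stayed within their intervals under the alternatives and 36 moved. For the number of coding genes, which has no such interval, an arbitrary band of 1155 to 2598 genes was used instead. Requiring no WT HR H3K27ac within 5 kb left 1386 peaks (18.3% of the list; 0% within 5 kb of H3K27ac). Requiring 50% cover left 759 (10%), with KO HR H3K27ac at 48.7%, WT normoxia H3K9ac at 53.9%, FLAG at 2.11%, a median width of 4030 bp, a median rank of 22.4 and 840 coding genes. With only WT HR H3K9ac peaks above the list's median, 226 peaks (5.95%) remained, with 66.4%, 96.0%, 7300 bp, a rank within the shortened list of 18.1, 9.73% within 5 kb of H3K27ac, 305 genes and a CpG ratio of 0.895. With only the peaks above the median of each other list, the set was 1337 peaks (17.6%), with WT normoxia H3K27ac at 2.77%, KO HR H3K27ac at 53.3%, WT normoxia H3K9ac at 35.4%, FLAG at 12.9%, 5550 bp, a rank of 55.9, 3.81% within 5 kb and a CpG ratio of 0.867; 12 cytosolic ribosomal protein genes then entered. Without the KO H3K9ac requirement, 1948 peaks (25.7%) gave KO HR H3K27ac at 49.0%, WT normoxia H3K9ac at 52.2%, 4975 bp, a rank of 23.3 and gene ends at 89.0%. Gene ends touched gave 89.0% and within 5 kb 94.0%. Rank by maximum gave 45.6. The KO list at the WT list's length gave 3.7%; this and the rank bands were chosen after seeing the data. With 50% cover, WT HR H3K9ac peaks above the median, or other lists above the median, the set held 5, 1 and 6 mitochondrial ribosome genes (12 in the main analysis), 2, 2 and 2 nuclear pore genes (8), 5, 2 and 5 RNA polymerase genes (8), 3, 0 and 2 Mediator genes (7), 2, 1 and 6 complex I genes (6), and 3, 1 and 9 splicing genes (7). The cause of these moves was not tested, beyond the smaller sets. Weak peaks near a list's limit bound every statement on absence.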

Other observations

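The highest summits of the set were not at gene ends, which was noticed after the values were seen. By maximum signal the first was a 1550 bp peak outside genes at chr19:61266191-61267740 with 233, and the second a 5980 bp peak within a gene body at chr3:96040261-96046240 with 223. A further 2 peaks outside genes, at chr19:61199011-61200940 with 155 and chr11:54139501-54141260 with 151, came before the first gene end, Prkrip1 with 105. The median summit of the set was 40.5. By total signal the 4 stood at ranks of only 37.1, 59.6, 21.5 and 4.27, being 1550 to 5980 bp wide, and none had KO HR H3K27ac. Next after Prkrip1 and Ndufa10 were Sin3b, for a corepressor scaffold of histone deacetylases, with 87.6, and Opa1, for the GTPase of inner mitochondrial membrane fusion, with 84.5. Both had WT normoxia H3K9ac and no KO HR H3K27ac.

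The set was found on every autosome. Its share of the WT HR H3K9ac peaks ran from 63 of 391 (16.1%) on chromosome 3 to 121 of 508 (23.8%) on chromosome 5. On the X chromosome it was 9 of 74 (12.2%).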
